A study of Mus musculus with 5 samples.

Results

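The 9 genes described here encode the insulin receptor (Insr), the type 1 insulin-like growth factor (IGF) receptor (Igf1r), the insulin receptor substrates Irs1 and Irs2, the adaptor inhibitors Grb10 and Grb14, the phosphoinositide 3-kinase (PI3K) regulatory subunit Pik3r1 and the transcription factors Foxo1 and Foxo3. The rule names them by their place in the pathway and uses no measured value, and all 9 were found by symbol among the 51912 gene IDs of the deposited tables. All 9 passed the filter on low counts that left 18615 genes for testing.

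The libraries came from total RNA of male mouse tissue labelled dorsolateral prostate, taken at 7 months of age. The 3 Ghr deletion mice carried the tamoxifen-inducible Cre ROSA26Cre-ERT2+/0, for which the labels of the 2 tamoxifen control mice list nothing. All 5 had the growth hormone receptor gene floxed on both copies (Ghrflox/flox) and the oncogene SV40 C3(1) T-antigen+/0, whose C3(1) promoter directs it to the prostate, and all 5 received tamoxifen at 250 mg/kg on 5 days, with tissue taken 1 month after the last dose. The ROSA26 locus is broadly active, so this Cre is not limited to the prostate, and Cre and Ghr deletion cannot be told apart in this design. The series calls the libraries of a group biological replicates.

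Libraries held 28536636, 37910327 and 33414067 counts in deletion replicates 1 to 3, against 47656212 and 13812454 in control replicates 1 and 2. The 11 prostate secretory markers took 0.00288%, 0.00331% and 0.0267% of counts in the deletion libraries, against 1.32% and 0.0277% in the controls, with 2, 1 and 2 of the 11 at 0 counts in the deletion libraries and 0 and 1 in the controls. Ceacam10 (523649 counts) and Spink1 (102619 counts) made up most of the share in control replicate 1. Most of the 11 markers were highest in control replicate 1, such as Pbsn with 4, 8 and 3 counts in the deletion libraries against 411 and 1 in the controls, but Mmp7 was highest in deletion replicate 3 (159 CPM, counts scaled by edgeR's TMM library sizes) and Azgp1 in deletion replicate 1 (7.29 CPM). Low levels of Pbsn and Msmb in all libraries but control replicate 1 go against the tissue label there. At 17.6 and 11.3 CPM in control replicate 1, these markers do not secure the label of that library either. The 9 seminal vesicle genes examined took 27.4%, 28.7% and 1.43% of counts in the deletion libraries, against 35.9% and 2.78% in the controls. In CPM, 6 of the 9 were lower in the deletion libraries without overlap, beside 10.2% of all genes tested. The 10 mitosis markers summed to 7.82, 12.3 and 6.16 CPM in the deletion libraries, against 245 and 47.8 CPM in the controls. All 10 were lower without overlap, beside the same 10.2%. The part of dividing cells in the values that follow was not tested. Ghr itself had 8.13, 20.9 and 12.1 CPM in the deletion libraries, against 14.4 and 31.3 CPM in the controls, and the groups overlapped. Its log2 fold change was -0.73 (SE 0.515, edgeR, adjusted p = 0.995), from counts over the whole gene that may include reads outside the floxed part. In bulk tissue, fewer cells of a type and less RNA per cell cannot be told apart, which holds for every value that follows.

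Insulin and the IGFs bind receptor tyrosine kinases, which phosphorylate IRS proteins on tyrosines that recruit the regulatory subunit of PI3K. The lipid messenger made by PI3K activates AKT, and AKT phosphorylates FoxO factors and keeps them out of the nucleus, so that FoxO target genes are transcribed when insulin or IGF signalling is low. Insr and Irs2 are themselves textbook FoxO targets, and growth hormone feeds into the pathway mainly by inducing IGF1. In the prostate this pathway is known for its part in epithelial growth.

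No member differed past the threshold between Ghr deletion and control libraries: 0 of 9 passed in edgeR's quasi-likelihood test at a Benjamini-Hochberg adjusted p under 0.05, where 0% of all 18615 genes passed. DESeq2 also passed 0 of 9, where it passed 0.892% of all genes, and limma-voom passed 0 of 9 and 0% of all genes. The members' count was also 0 where edgeR made calls elsewhere: 0.043% of all genes with a replicate block, 0.0114% on leaving out deletion replicate 3, 0.241% on leaving out control replicate 2, and 0.459% on leaving out deletion replicate 3 together with control replicate 1. At an unadjusted p under 0.05 edgeR gave 0 of the 9, against 4.92% of all genes, 1.69% higher and 3.23% lower. By fold change 6 members were higher and 3 lower in the deletion libraries, where 50.4% of all genes were higher, and their median log2 fold change was 0.39, against 0.004 over all genes. Insr, Irs2 and Foxo1 had every deletion library above both controls in CPM, which held for 9.43% of all genes tested, and no member had every deletion library below both controls, which held for 10.2%, or 19.6% of all genes in either direction.

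**Figure D1:**
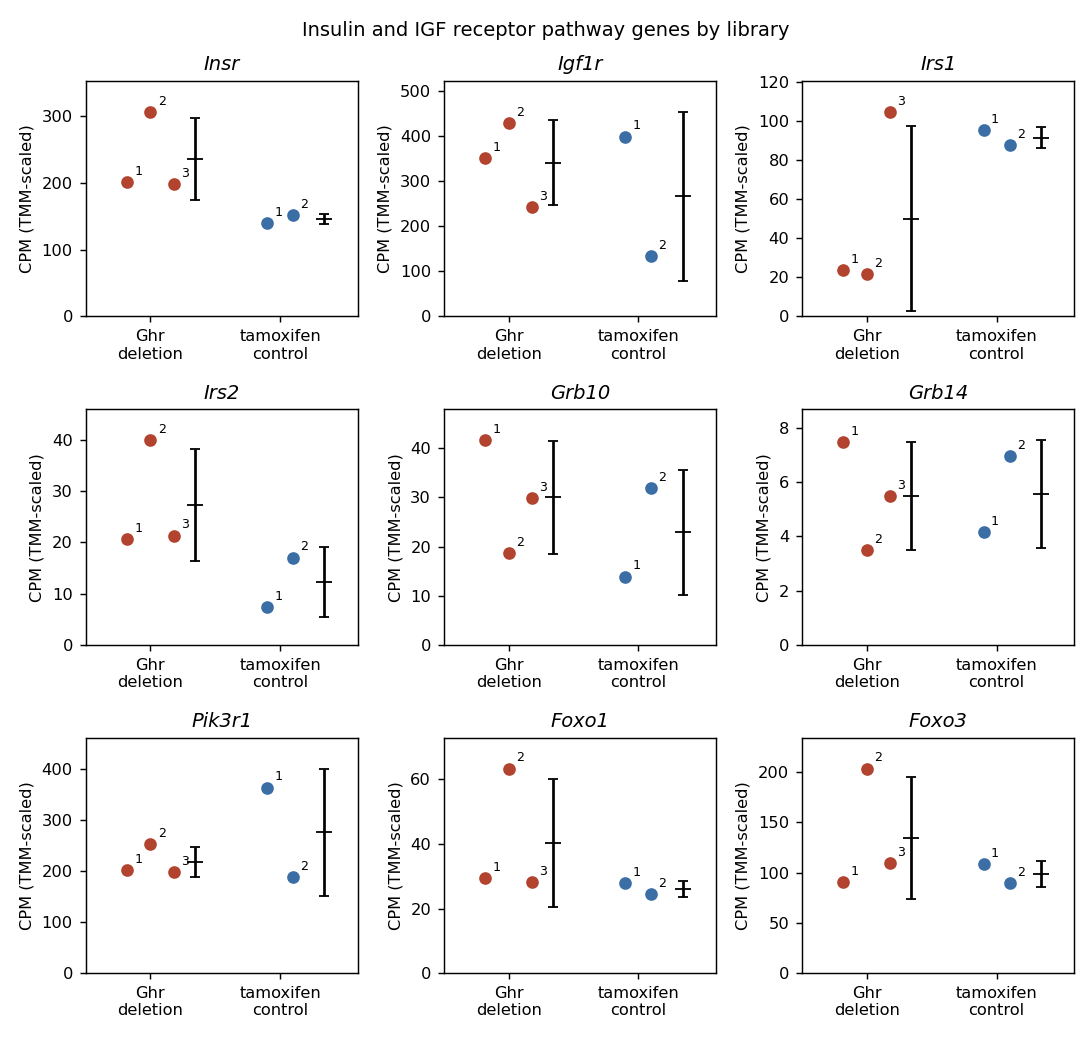
CPM (counts scaled by TMM library sizes, linear axis from 0) of each of the 9 genes in every library, with the replicate number beside each point and the group mean with its SD in black. Insr sits at 198 to 306 CPM in the Ghr deletion libraries and at 140 and 151 CPM in the controls, while Irs1 sits near 22 to 24 CPM in deletion replicates 1 and 2 and near 88 to 105 CPM in the other libraries.

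Per length, 3 members led in every library. By the authors' TPM (a transcript level per length within a library), Pik3r1, Insr and Igf1r held the ranks 1 to 3 among the 9 in all 5 libraries, with Foxo3 always at rank 4. Which of the leading 3 was highest varied: Igf1r led in deletion replicate 1, Insr in deletion replicate 2, and Pik3r1 in deletion replicate 3 and both controls. The other 5 members changed places from library to library, and Irs2 was lowest of all in both controls. TPM values themselves were low in control replicate 1 for all 9 genes except Irs1, so levels across libraries are given below in CPM.

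The receptors came first in the signalling order. Insr (ENSMUSG00000005534, chromosome 8, 3122061 to 3279617, minus strand, GRCm38) had 201, 306 and 198 CPM in the deletion libraries, against 140 and 151 CPM in the controls. The groups did not overlap, and deletion replicate 2 stood above the other deletion libraries. Deletion over control, the log2 difference came to 0.69, with SE 0.328 and a 95% interval of -0.09 to 1.48 (edgeR, adjusted p = 0.995; DESeq2, adjusted p = 0.793), and it stayed between 0.46 and 0.81 when any 1 library was left out. In TPM Insr read 21.1, 36.65 and 65.68 in the deletion libraries, against 4.04 and 24.37 in the controls, so the groups overlapped on that scale. The length that RSEM gives Insr, which is weighted over its 5 annotated transcripts by their use in the library, was 5287, 5368 and 5840 bases in the deletion libraries, against 5746 and 6391 bases in the controls.

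Igf1r (ENSMUSG00000005533, chromosome 7, 67952827 to 68233668, plus strand) had 352, 429 and 242 CPM in the deletion libraries, against 399 and 134 CPM in the controls. The controls differed from each other more than any deletion library did from another, and the groups overlapped. The log2 fold change of 0.35 (SE 0.526, edgeR, adjusted p = 0.995) depended on the control kept: leaving out control replicate 1 gave 1.35, and leaving out control replicate 2 gave -0.23. Its TPM were 22.71, 30.15 and 50.77 in the deletion libraries, against 7.67 and 16.34 in the controls, without overlap on that scale.

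The scale decided which receptor separated the groups. With plain library totals in place of TMM, Insr read 202, 258 and 320 CPM in the deletion libraries, against 68.5 and 226 CPM in the controls, and overlapped, while Igf1r was the 1 member whose groups did not overlap. The same held for the deposited TPM. Those scales put 5.18% and 4.99% of all genes above both controls in every deletion library, and 2.69% and 0.688% below both. The TMM factors were 1.00, 0.843 and 1.61 in the deletion libraries, against 0.491 and 1.5 in the controls. With DESeq2's size factors Insr and Irs2 stayed apart, where 9.3% of all genes did so upward, and Foxo1 overlapped, and with upper-quartile scaling the same 3 members as with TMM stayed apart, where 9.81% of all genes did so upward and 9.81% downward.

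Ratios within a library do not depend on that scaling. The TPM ratio of Insr to Igf1r was 0.929, 1.22 and 1.29 in the deletion libraries, against 0.527 and 1.49 in the controls. Both deletion and control libraries fell on either side of 1, and the mean log2 ratio was 0.18 ± 0.25 (SD, n = 3) in the deletion libraries and -0.17 ± 1.06 (SD, n = 2) in the controls. The difference of 0.36 gave p = 0.7 in a two-sided exact permutation test, in which 3 against 2 libraries cannot go below 0.1, and an adjusted p of 0.7 over the 4 ratios tested. Without control replicate 1 the difference was -0.39.

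**Figure D2:**
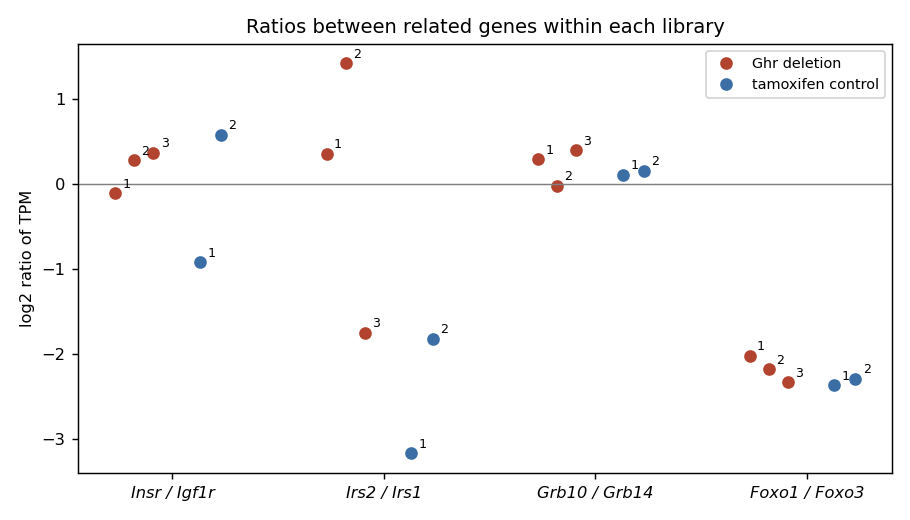
Log2 ratio of TPM between related genes within each library, with the replicate number beside each point; Ghr deletion libraries stand left of the tamoxifen controls in each pair. The Irs2 to Irs1 ratio runs from -1.75 to 1.42 in the deletion libraries and from -3.17 to -1.82 in the controls, while the Foxo1 to Foxo3 ratio stays between -2.37 and -2.02 in all 5.

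The substrates Irs1 and Irs2, the docking proteins that pass the receptor signal to PI3K, had fold changes of opposite sign, and neither passed the threshold. Irs2 (ENSMUSG00000038894, chromosome 8, 10984681 to 11008458, minus strand) had 20.7, 39.9 and 21.3 CPM in the deletion libraries, against 7.36 and 17.0 CPM in the controls. The groups did not overlap in CPM, and the lowest deletion library stood close to control replicate 2. Its log2 fold change of 1.17 was the largest of the 9 in size (SE 0.504, 95% interval -0.04 to 2.37; edgeR, adjusted p = 0.991; DESeq2, adjusted p = 0.616). Leaving out control replicate 1 gave 0.68, and leaving out control replicate 2 gave 1.89. With plain library totals Irs2 read 20.7, 33.6 and 34.4 CPM in the deletion libraries, against 3.61 and 25.4 CPM in the controls, and the groups overlapped.

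Irs1 (ENSMUSG00000055980, chromosome 1, 82233101 to 82291416, minus strand) split the deletion libraries. It had 23.6, 21.9 and 105 CPM there, against 95.4 and 87.9 CPM in the controls. Deletion replicates 1 and 2 were far below both controls, and deletion replicate 3 was above both of them. The log2 fold change was -0.87 (SE 0.7, edgeR, adjusted p = 0.995), and -2.02 without deletion replicate 3 (adjusted p = 0.597). Leaving out deletion replicate 1 or deletion replicate 2 gave -0.52, plain library totals gave -0.34, and log2(TPM + 1) and log2(TPM + 0.1) in limma gave -0.07 and -0.17. It came to -1.95 (edgeR, adjusted p = 0.1) when deletion replicate 3 and control replicate 1 were both left out. The seminal vesicle share of counts was high in deletion replicates 1 and 2 and in control replicate 1, where Irs1 was not low. That share was not the same mix of genes in these libraries. Svs2 had 191558 and 270169 CPM in deletion replicates 1 and 2 and 193471 CPM in control replicate 1. Svs1 had 6.2 and 0.0626 CPM in deletion replicates 1 and 2, but 78234 CPM in control replicate 1. The vas deferens and epididymis markers, 9 genes, summed to 5360, 4919 and 370 CPM in the deletion libraries, against 14.7 and 1708 CPM in the controls, with 4, 2 and 6 of the 9 at 0 counts in the deletion libraries and 6 and 4 in the controls. Akr1b7, at 3484, 3250 and 9.26 CPM in the deletion libraries against 4.92 and 890 CPM in the controls, was highest where Irs1 was low. Defb1, at 211, 559 and 335 CPM in the deletion libraries against 8.51 and 106 CPM in the controls, did not follow that order. The part of these tissues in the result was not tested. The Irs1 counts were not whole, and its 3′ end overlaps the annotated gene Gm9747 on the opposite strand, with which it may share reads and which had 145, 139 and 2840 counts in the deletion libraries, against 191 and 846 in the controls.

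The ratio between the substrates combined both patterns. The TPM ratio of Irs2 to Irs1 was 1.29, 2.67 and 0.298 in the deletion libraries, against 0.111 and 0.283 in the controls. Every deletion library was above both controls, though deletion replicate 3 was close to control replicate 2. The mean log2 ratio was 0.01 ± 1.61 (SD, n = 3) in the deletion libraries and -2.50 ± 0.95 (SD, n = 2) in the controls, a difference of 2.51 with p = 0.2 in the two-sided exact permutation test and an adjusted p of 0.6 over 4 ratios. The difference ranged from 1.80 to 3.39 when any 1 library was left out.

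The windows of 250 bases before the RefSeq starts of Irs1 and Irs2 (GRCm38.p6, minus strand, written 5′ to 3′) are shown because the substrates' transcripts differed in pattern while both windows hold the same FoxO-type motif. Capitals mark CAAAACA, the insulin response sequence best known from the human IGFBP1 promoter, here read as its reverse complement TGTTTTG. The Irs2 window is chr8:11008930-11009179 and the Irs1 window chr1:82291440-82291689. The RefSeq starts, 11008929 for Irs2 and 82291439 for Irs1, lie upstream of the GENCODE starts at 11008458 and 82291416. The windows therefore do not adjoin the GENCODE starts, least of all for Irs2.
Irs2: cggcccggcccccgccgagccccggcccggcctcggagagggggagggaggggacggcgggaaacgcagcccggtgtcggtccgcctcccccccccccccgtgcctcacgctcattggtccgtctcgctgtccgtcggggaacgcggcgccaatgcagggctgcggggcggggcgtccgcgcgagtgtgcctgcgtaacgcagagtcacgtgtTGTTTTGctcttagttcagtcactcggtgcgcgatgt
Irs1: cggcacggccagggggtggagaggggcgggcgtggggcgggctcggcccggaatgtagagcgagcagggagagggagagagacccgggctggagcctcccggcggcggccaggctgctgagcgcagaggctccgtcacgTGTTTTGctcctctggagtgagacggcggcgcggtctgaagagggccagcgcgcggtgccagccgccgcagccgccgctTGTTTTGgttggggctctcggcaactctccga

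CAAAACA, searched on both strands, stood 1 time in the Irs2 window and 2 times in the Irs1 window, and in 5.56% of the 32851 RefSeq windows of the same length. Among the 8 members matched to a RefSeq window, no other member held it. Its core AAACA, which lies inside it, stood also in the Foxo1 window and in 1 of the 2 Grb10 windows, and in 46.4% of all windows. The FoxO consensus GTAAACA stood in no member's window, and in 3.17% of all windows. These matches describe letters in the windows and are no measure of binding. Insr was not matched to a window.

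The adaptors Grb10 and Grb14 bind the activated receptors and inhibit them, and Grb10 is imprinted. Grb10 (ENSMUSG00000020176, chromosome 11, 11930508 to 12038683, minus strand) had 41.6, 18.6 and 29.8 CPM in the deletion libraries, against 13.9 and 31.9 CPM in the controls, so the groups overlapped. Its log2 fold change was 0.39 (SE 0.49, edgeR, adjusted p = 0.995), with -0.09 on leaving out control replicate 1 and 1.11 on leaving out control replicate 2. Grb14 (ENSMUSG00000026888, chromosome 2, 64912476 to 65024987, minus strand) was the scarcest member in CPM, at 7.47, 3.51 and 5.49 in the deletion libraries, against 4.15 and 6.97 in the controls. Deletion over control, it came to -0.02 on the log2 scale, with SE 0.498 (edgeR, adjusted p = 0.999) and a 95% interval of -1.21 to 1.17 that leaves room for a change of more than 2-fold in either direction.

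Grb10 and Grb14 followed each other across the libraries, with deletion replicate 1 and control replicate 2 highest for both. Their TPM ratio was 1.23, 0.984 and 1.32 in the deletion libraries, against 1.08 and 1.11 in the controls, a difference in mean log2 ratio of 0.09 (two-sided exact permutation test, p = 0.6; adjusted p = 0.7). Leaving out 1 library gave 0.00 to 0.21. On expected counts, with no length, the difference was 0.47, every deletion library was above both controls, and the unadjusted two-sided exact permutation p was 0.1, the smallest this design allows. The counts were 1186, 594 and 1608 for Grb10 and 213, 112 and 296 for Grb14 in the deletion libraries, against 325 and 659 for Grb10 and 97 and 144 for Grb14 in the controls. The RSEM length of Grb14, which has 8 annotated transcripts, was 1223, 1088 and 1294 bases in the deletion libraries, against 1537 and 1363 bases in the controls, and the groups did not overlap.

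Pik3r1 (ENSMUSG00000041417, chromosome 13, 101680563 to 101768217, minus strand), which encodes the p85α regulatory subunit and its shorter forms, had 203, 253 and 199 CPM in the deletion libraries, against 364 and 188 CPM in the controls. Control replicate 1 was highest and control replicate 2 lowest, with all deletion libraries between them. The overlapping gene Gm36638 lies within Pik3r1 on the same strand, and reads may be split between them. The log2 fold change was -0.34 (SE 0.372, edgeR, adjusted p = 0.995), with -0.74 on leaving out control replicate 2 and 0.22 on leaving out control replicate 1. It was 0.10 with plain library totals, where the median over all genes was 0.227.

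The FoxO factors, which insulin and IGF signalling holds inactive, kept a nearly fixed proportion. Foxo1 (ENSMUSG00000044167, chromosome 3, 52268336 to 52353221, plus strand) had 29.3, 63.1 and 28.2 CPM in the deletion libraries, against 27.9 and 24.4 CPM in the controls. The groups did not overlap, but deletion replicate 3 stood only just above control replicate 1, and deletion replicate 2 carried the difference: the log2 fold change was 0.62 (SE 0.431, edgeR, adjusted p = 0.995), and 0.13 without that library. Gm38034 lies within Foxo1 on the same strand, at 77, 194 and 233 counts in the deletion libraries against 79 and 85 in the controls. Foxo3 (ENSMUSG00000048756, chromosome 10, 42181841 to 42276755, minus strand) had 90.8, 203 and 109 CPM in the deletion libraries, against 108 and 89.7 CPM in the controls, and the groups overlapped. Its log2 fold change was 0.44 (SE 0.409, edgeR, adjusted p = 0.995), and 0.02 without deletion replicate 2. The TPM ratio of Foxo1 to Foxo3 was 0.247, 0.221 and 0.199 in the deletion libraries, against 0.193 and 0.204 in the controls (difference in mean log2 ratio 0.16; two-sided exact permutation test, p = 0.3; adjusted p = 0.6).

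**Figure D3:**
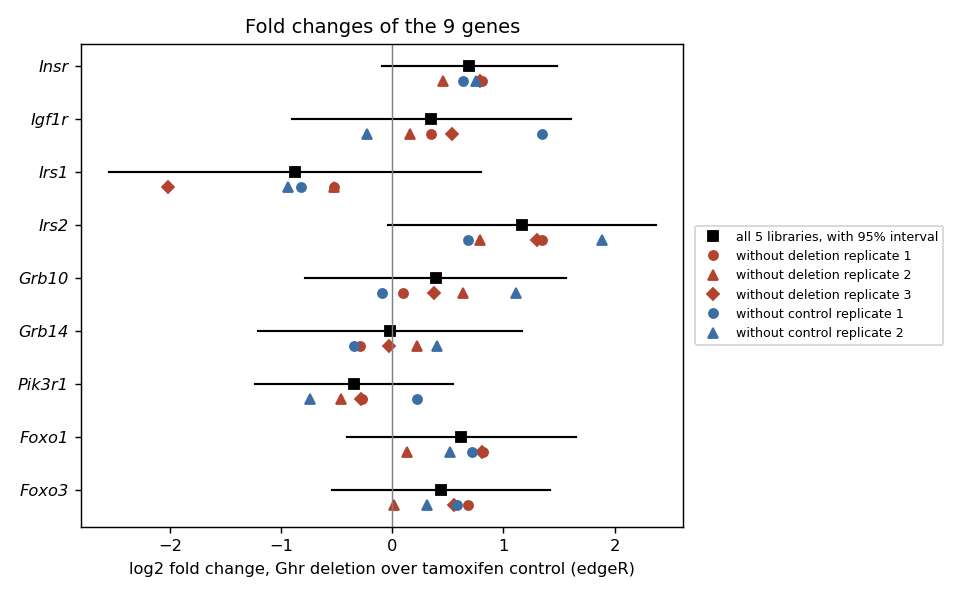
Log2 fold change of each gene, Ghr deletion over tamoxifen control, from edgeR: black squares with 95% intervals use all 5 libraries, and coloured marks under them leave out 1 library each. Every interval includes 0. Insr, Irs2, Foxo1 and Foxo3 keep a positive value in each leave-one-out fit, with Foxo1 as low as 0.13 and Foxo3 as low as 0.02. Irs1 keeps a negative value, while Igf1r runs from -0.23 to 1.35.

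Set against each gene's own mean, deletion replicate 2 was the highest library for Insr, Igf1r, Irs2, Foxo1 and Foxo3, and the lowest deletion library for Irs1, Grb10 and Grb14. The likeness of patterns was measured as the root mean square difference of log2(CPM + 0.5) over the 5 libraries, after each gene was centred on its mean. By that measure Foxo1 and Foxo3 were the closest pair of members (0.133), followed by Insr with Foxo1 (0.222), Insr with Foxo3 (0.259) and Grb10 with Grb14 (0.276). Irs1 and Irs2 were the farthest apart (1.61). These distances describe 5 libraries that share their scaling and were given no test.

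**Figure D4:**
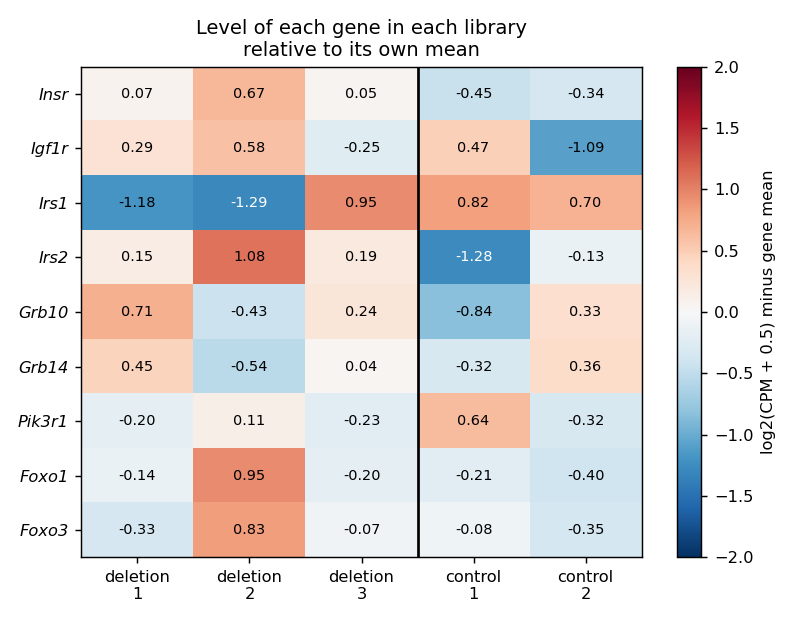
Log2(CPM + 0.5) of each gene in each library minus the gene's mean over the 5 libraries, with Ghr deletion libraries left of the line and tamoxifen controls right of it; red is above the mean and blue below. Deletion replicate 2 stands at 0.67 for Insr, 1.08 for Irs2, 0.95 for Foxo1 and 0.83 for Foxo3, and at -1.29 for Irs1.

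Among 12557 other genes, the pattern most like that of Insr was that of Vezf1, a zinc finger transcription factor, with a root mean square difference of 0.0385 against a median of 0.55 over all candidates, at 80.9, 115 and 79.1 CPM in the deletion libraries and 52.8 and 58.6 CPM in the controls. It was followed by Rab9, Dcaf13, Crebrf and Ubxn7. For Irs2 the nearest were F2rl1, a protease-activated receptor, at 22.6, 39.7 and 21.6 CPM in the deletion libraries and 7.91 and 16.6 CPM in the controls (0.0611), then Gpcpd1, Prkcq, Pacsin1 and Nptxr. For Igf1r they were Tmem62 (0.143), Cnnm2, Ino80b and Ctdspl.

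Of the other genes that act at the receptors, 21 of 22 listed were tested, 9 higher and 12 lower by fold change, with a median log2 fold change of -0.01. In this list 0 genes passed in edgeR or DESeq2, and 1 higher and 1 lower had an unadjusted p under 0.05 in edgeR, beside 1.69% and 3.23% of all genes. Of the 21, 2 were higher without overlap, near the 9.43% over all genes, and 0 were lower, beside 10.2%. Grb7, the third adaptor of the Grb10 and Grb14 family, had 31.3, 35.1 and 29.2 CPM in the deletion libraries, against 20.0 and 18.6 CPM in the controls, without overlap (log2 fold change 0.72, SE 0.271; edgeR, adjusted p = 0.991). Cbl, a ubiquitin ligase of activated receptors, was also apart, at 79.5 to 81.1 CPM in the deletion libraries and 72.9 and 70.5 CPM in the controls. Enpp1, an inhibitor of the insulin receptor, had 5.22, 6.77 and 17.1 CPM in the deletion libraries, against 3.04 and 6.44 CPM in the controls. On the lower side Irs4 had 0.596, 0.0626 and 0.483 CPM in the deletion libraries, against 6.42 and 0.484 CPM in the controls, so that its log2 fold change of -3.17 (edgeR, adjusted p = 0.991) rested on control replicate 1, and Sh2b1, a receptor adaptor, had 14.2 ± 1.69 CPM (SD, n = 3) in the deletion libraries and 20.3 ± 10.3 CPM (SD, n = 2) in the controls.

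The PI3K, AKT and mTOR list had 28 of 28 genes tested, 13 higher and 15 lower, with a median of -0.06 and 0 genes past the threshold in edgeR or DESeq2. Of the 28, 4 were lower and 1 was higher without overlap, beside 10.2% and 9.43% of all genes, so the total of 5 is near the 19.6% over all genes. The catalytic subunits Pik3cg, at 3.75, 2.85 and 3.66 CPM in the deletion libraries against 25.8 and 4.70 CPM in the controls, and Pik3cd, at 2.14, 1.16 and 2.80 CPM in the deletion libraries against 5.90 and 3.58 CPM in the controls, are best known from leukocytes. So is the lipid phosphatase Inpp5d, at 3.26, 3.73 and 5.72 CPM in the deletion libraries against 7.23 and 8.76 CPM in the controls. The 7 macrophage markers summed to 48.1, 46.4 and 52.0 CPM in the deletion libraries, against 70.2 and 108 CPM in the controls, with 6 of 7 lower without overlap and 0 at 0 counts in any library. The 7 T cell markers summed to 2.42, 1.75 and 2.65 CPM in the deletion libraries, against 5.35 and 10.0 CPM in the controls. Of these markers, 4 were lower without overlap and 1 was at 0 counts in deletion replicate 2. Between the controls, Pik3cg and Pik3cd were higher in replicate 1, but Inpp5d and both marker sums were higher in replicate 2. The part of these cells in the result was not tested. Akt1 was lower without overlap as well, at 48.8, 53.1 and 38.8 CPM in the deletion libraries against 77.3 and 53.5 CPM in the controls, with deletion replicate 2 just below control replicate 2. The higher member was Rictor, the defining subunit of mTOR complex 2, at 88.1, 131 and 103 CPM in the deletion libraries against 72.3 and 80.9 CPM in the controls. Rheb, the activator of mTOR complex 1, had 53.5 ± 6.21 CPM (SD, n = 3) in the deletion libraries and 43.0 ± 8.86 CPM (SD, n = 2) in the controls.

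The FoxO family and target list had 21 of 24 genes tested, 17 higher and 4 lower, where 50.4% of all genes were higher. Its median log2 fold change was 0.51, against 0.004 over all genes. The list joins family members and targets, so its count by direction is no measure of FoxO activity. In it 0 genes passed in edgeR or DESeq2, and the median was 0.25 without deletion replicate 2. Bcl2l11, a pro-apoptotic BCL2 family member, had 17.3, 41.4 and 19.9 CPM in the deletion libraries, against 15.0 and 12.2 CPM in the controls. Klhl24, a ubiquitin ligase adaptor, averaged 255 ± 96.1 CPM (SD, n = 3) in the deletion libraries and 156 ± 25.2 CPM (SD, n = 2) in the controls. Pck1, the gluconeogenic enzyme, had 0.35, 2.13 and 1.58 CPM in the deletion libraries, against 0 and 0.339 CPM in the controls, with deletion replicate 1 near control replicate 2. These 3 were the list's genes without overlap, all higher, 3 of 21 beside 9.43% of all genes. Pdk4, a kinase that restrains pyruvate oxidation, had 4.63, 38.8 and 27.3 CPM in the deletion libraries, against 1.80 and 6.87 CPM in the controls (log2 fold change 2.44, SE 1; edgeR, adjusted p = 0.991). On the lower side, Trim63 had 0.449 ± 0.253 CPM (SD, n = 3) in the deletion libraries and 0.698 ± 0.382 CPM (SD, n = 2) in the controls, and the cell cycle inhibitor Cdkn1b had 60.9 ± 2.62 CPM in the deletion libraries and 65.4 ± 20.0 CPM in the controls. Fat cells also express Pck1 and Pdk4: the 8 adipocyte markers summed to 81.5, 83.6 and 101 CPM in the deletion libraries, against 38.3 and 52.4 CPM in the controls, none of the 8 was apart without overlap, and 0, 0 and 1 of them were at 0 counts in the deletion libraries, against 4 and 1 in the controls. Plin4 made up most of the sum in deletion replicate 1 (67.9 CPM), where Fabp4 had 1.4 CPM, against 0.685 and 4.02 CPM in the controls. Lipe was highest in control replicate 1 (18.7 CPM). Adipoq had 6, 65 and 67 counts in the deletion libraries, against 0 and 21 in the controls. The part of fat cells in the values of Pck1, Pdk4, Insr and Irs2 was not tested.

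Of the ligands and binding proteins, 8 of 9 were tested, 1 higher and 7 lower, with a median of -1.08. Igf2 was the higher member, at 6.69, 12.0 and 5.68 CPM in the deletion libraries against 2.87 and 4.26 CPM in the controls, and 4 binding proteins of the 8 genes were lower without overlap, beside 10.2% of all genes. Igfbp5 stood at 25, 10.2 and 24.7 CPM in the deletion libraries against 100 and 65.2 CPM in the controls (edgeR, adjusted p = 0.985; DESeq2, adjusted p = 0.0185, where DESeq2 called 0.892% of all genes). Igfbp4 stood at 7.89, 6.80 and 7.55 CPM in the deletion libraries against 14.1 and 22.7 CPM in the controls. Igfbp3 had 10.7, 8.05 and 23.9 CPM in the deletion libraries, against 26.3 and 55.6 CPM in the controls, and Igfbp6 had 1.61, 0.689 and 2.08 CPM in the deletion libraries, against 5.60 and 2.66 CPM in the controls. The 8 fibroblast markers summed to 296, 99.6 and 244 CPM in the deletion libraries, against 399 and 596 CPM in the controls, 5 of them lower without overlap and none at 0 counts, and the 8 endothelial markers to 44.8, 28.3 and 45.7 CPM in the deletion libraries, against 78.7 and 94.2 CPM in the controls, 6 of them lower without overlap and none at 0 counts. Their part in the binding protein values was not tested.

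**Figure D5:**
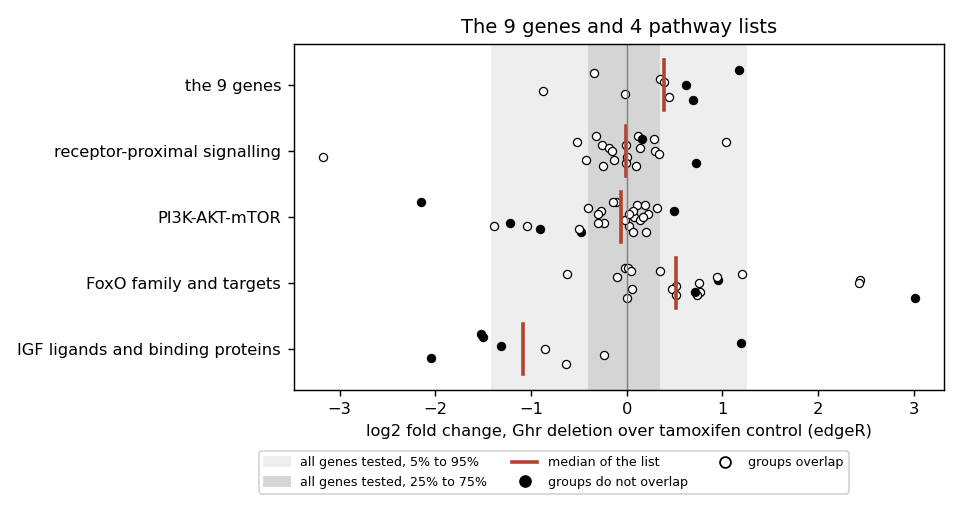
Log2 fold change, Ghr deletion over tamoxifen control (edgeR), of the 9 genes and of the tested genes of 4 pathway lists; filled points have groups that do not overlap in CPM, red bars are list medians, and grey bands span the 25% to 75% and the 5% to 95% range of all 18615 genes tested. The medians are 0.39, -0.01, -0.06, 0.51 and -1.08 from top to bottom.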

How the data were processed

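RNA-seq libraries of 3 Ghr deletion and 2 tamoxifen control mice were made, per the labels' protocols, with a stranded kit. Tools listed in the submitters' processing notes are RSEM 1.3.0, STAR 2.5.3a and bcl2fastq 2.20.422, with build GRCm38. For the strand setting and annotation, the sources used here give nothing. Per the file headers, the authors deposited RSEM expected counts, which are not normalized, with TPM and with lengths per gene. Groups and replicate numbers came from the titles.

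Expected counts were rounded and fitted with edgeR 4.0.16 (R 4.3.3): filterByExpr, TMM, robust glmQLFit, and glmQLFTest on the group coefficient, Benjamini-Hochberg adjusted over 18615 genes. A count of 3 stood for 0.0557 to 0.145 CPM. The common biological coefficient of variation was 0.52 and log2 fold changes had a median SE of 0.529, so the spread between libraries limits precision. Correlation of log2(CPM + 0.5) across genes was highest between deletion replicate 3 and control replicate 2, at 0.968. Among the deletion libraries it was 0.928 to 0.953, and between the controls it was 0.917. DESeq2 1.42.0, limma 3.58.1, other scalings, left-out libraries and a replicate block were tried. The edgeR step was also run on counts simulated from its own fitted dispersions, which cannot show how well it suits these libraries. Ratios were compared by exact permutation. Positions are from GENCODE M21, and windows and sequences from RefSeq (GRCm38.p6). The 9 members, the gene lists, the alternatives and the rule for named genes (per list, the 2 of smallest p in each direction and those without overlap, up to 6; for Insr, Irs2 and Igf1r, the 5 nearest patterns, of which 1 is not reported here) were chosen with earlier results of these data known.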

Additional observations from a re-analysis of the deposited data

How the results depend on the processing

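No member passed the threshold in any of the 16 alternatives, and 6 to 7 of the 9 were higher by fold change with any 1 library left out. Over all genes the count of calls, 0 in edgeR, was 166 with DESeq2, 46 with plain library totals, 8 with a replicate block, 11 and 12 with log2(TPM + 1) and log2(TPM + 0.1) in limma, 85 without control replicate 1 and deletion replicate 3 together, and 0 to 48 with 1 library left out. The replicate block changed no member's call, and the labels give no pairing of animals by number. Deletion replicate 3 has no control of its number, so in that fit it adds nothing to the group difference. Deviations of same-numbered libraries correlated at 0.18 and -0.142 across genes, which with 2 controls cannot show whether the numbers pair them. The median over all genes was 0.227 with library totals, and 0.539 and 0.911 with log2(TPM + 1) and log2(TPM + 0.1), which change the unit, the test and the pseudocount together. In each of these settings 8 of the 9 members were higher, where 69.4%, 89.9% and 90.1% of all genes were higher. In the same order, Grb14 stood at 0.05, 0.79 and 1.26, Pik3r1 at 0.10, 0.76 and 0.79, the receptor-proximal median at 0.30, 0.83 and 0.91, and the PI3K median at 0.20, 0.85 and 1.02; with the 2 TPM settings the FoxO list median was 1.22 and 1.55 and that of ligands and binding proteins -0.08 and -0.09. Without control replicate 1 and deletion replicate 3, Grb10 stood at -0.09, Pik3r1 at 0.28, the receptor-proximal median at 0.13, the PI3K median at 0.15, the Insr to Igf1r difference at -0.49 and that of Grb10 to Grb14 at -0.02. Grb14 was 0.0017 with no low-count filter. With 1 library left out, Igf1r ranged from -0.23 to 1.35, Irs1 from -2.02 to -0.52, Grb10 from -0.09 to 1.11, Grb14 from -0.34 to 0.40, Pik3r1 from -0.74 to 0.22, the receptor-proximal median from -0.05 to 0.18, the PI3K median from -0.31 to 0.11 and the Insr to Igf1r difference from -0.39 to 1.11. The cause was not tested. With 1 control left, that library is assumed to vary like the deletion libraries.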
